A study of Mus musculus with 10 samples.

Results

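The sphingosine 1-phosphate receptor and egress genes described here are the receptors S1pr1, S1pr4 and S1pr5, the retention gene Cd69, and the sphingosine kinases Sphk1 and Sphk2. Every probe set whose symbol in the platform's gene table was one of these 6 was taken, which gave 8 of the 45101 probe sets on the array, and the probe set with the highest mean over the 10 arrays stands for the gene. RNA had been measured on Affymetrix mouse arrays in natural killer cells (NKC) of the spleen of ICR mice aged 6 weeks, either Runx3 +/+ (WT) or Runx3 -/- (KO), that is, with or without the transcription factor Runx3. All cells had been enriched by negative selection and grown for 7 days in recombinant human IL-2 at 1000 u/ml or in mouse IL-15, and the methods add a sort on the NKC antigen DX5. Each array was of 1 mouse, and IL-2 had 3 WT and 3 KO arrays while IL-15 had 2 of each genotype, 10 in all. The labels give the sex only as male or female, and Runx3 -/- was the genotype of the mouse, not of the NKC alone.

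Sphingosine 1-phosphate (S1P) is a lipid that is abundant in blood and lymph and scarce inside lymphoid tissue, and lymphocytes that carry receptors for it leave the tissue along this gradient. T and B cells use mainly S1pr1 for this, whereas NKC of the mouse depend on S1pr5 to leave bone marrow and lymph nodes, and S1pr4 is found on many blood cells. Sphk1 and Sphk2 make S1P from sphingosine by adding a phosphate, and Cd69, an early activation antigen, binds S1pr1 and draws it from the cell surface.

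Values are log2 signals as deposited, and only differences of a probe set with itself are read, since brightness is not comparable between probe sets. The values of a WT and a KO array with the same number added up to a constant for the cytokine: over all 45101 probe sets the sums differed by at most 0.00014 for IL-2 and by at most 0.00013 for IL-15. Differences between the numbered pairs had thus been removed before deposit, a step that the sources used here do not describe. In each cytokine the WT and KO arrays therefore mirror each other around the same mean, their SDs are equal, and the 3 pair differences in IL-2 and 2 in IL-15 are the independent measurements. All comparisons of KO with WT below were made with limma on 9391 genes that reached log2 5 in at least 2 arrays, of 18194 named genes, with the pair as a block. A gene is said to have risen, fallen or changed where its Benjamini-Hochberg adjusted p was below 0.05 and its difference at least 1.5-fold. Intervals are 95% confidence intervals of the same fit, and an SD beside a difference is that of the pair differences. For a group whose mean was below log2 5, folds are minima that take log2 5 as its level. Of the 6 members, 4 were tested, S1pr4, S1pr5, Cd69 and Sphk2, while S1pr1 and Sphk1 stayed under log2 5 in every array.

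Among the members, only S1pr5 passed the test, and it rose in KO NKC in both cytokines. In IL-2, 1 of 4 tested members rose and 0 fell, where 10.5% of all tested genes rose and 9.17% fell. In IL-15, 1 of 4 rose and 0 fell, where 0.458% of all tested genes rose and 0.841% fell. The median difference over the 4 tested members was 0.26 in IL-2 and 0.29 in IL-15, beside 0.11 and -0.01 over all tested genes.

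**Figure D1:**
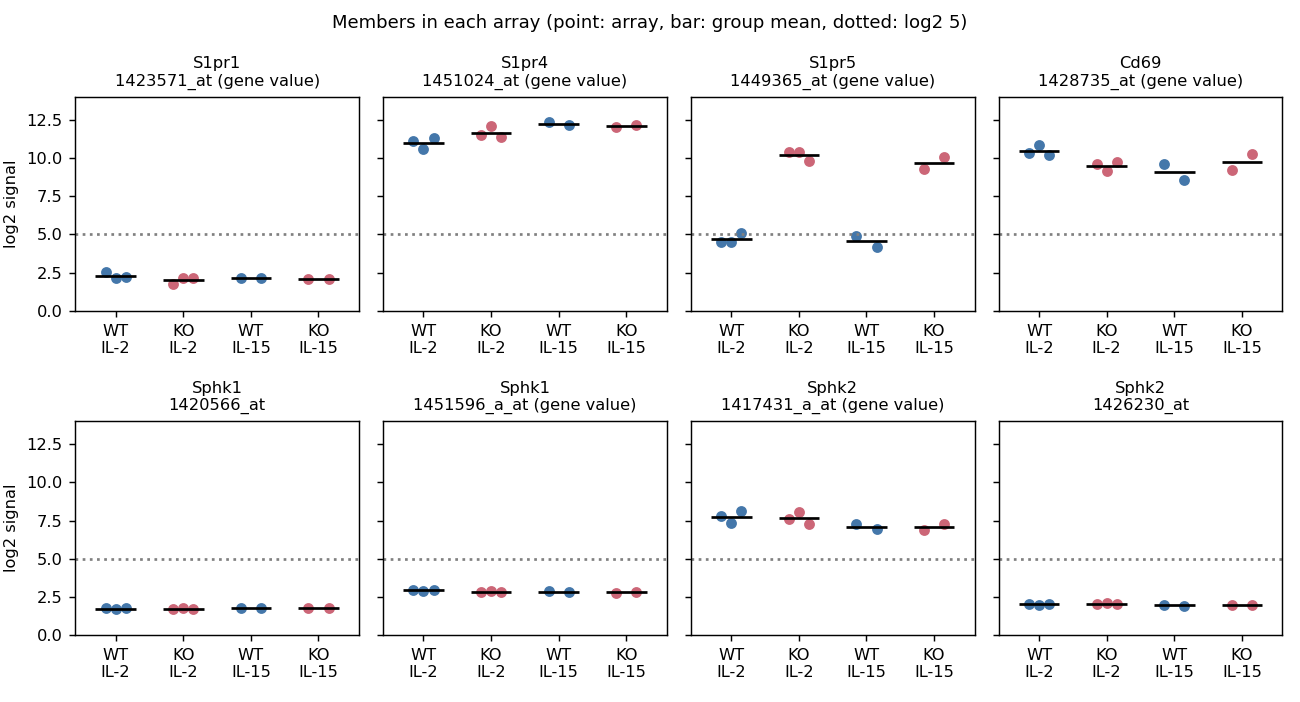
Log2 signal (y axis) of the 8 probe sets of the 6 members in each array, by genotype and cytokine (x axis). Points are arrays, bars are group means and the dotted line is log2 5. S1pr5 lay at 4.19 to 5.09 in the 5 WT arrays and at 9.30 to 10.39 in the 5 KO arrays.

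S1pr5 was measured by 1 probe set, 1449365_at. In IL-2 its log2 signal was 4.53, 4.49 and 5.09 in the WT arrays and 10.36, 10.39 and 9.79 in the KO arrays. All KO arrays were far above all WT arrays, as were (by any margin) those of 31.1% of all tested genes, and the WT arrays lay around the value taken here as the floor. The KO minus WT differences of the 3 pairs were 5.83, 5.90 and 4.70, with a mean of 5.48 ± 0.68 (SD, 3 pairs) and an interval from 4.56 to 6.40. S1pr5 RNA thus rose at least 36.3-fold (adjusted p = 0.00132, limma). The differences themselves take in WT values around or under the floor, so only the minimum fold is to be read as a size. As RNA was taken from a bulk of cells, a change in the share of cells with S1pr5 and a change in the RNA per cell cannot be told apart.

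In IL-15, S1pr5 stood at 4.92 and 4.19 in the WT arrays and at 9.30 and 10.04 in the KO arrays. No array of WT reached the range of KO, which held with KO higher for 31.7% of all tested genes. The pair differences were 4.38 and 5.85, with a mean of 5.12 ± 1.04 (SD, 2 pairs) and an interval from 3.99 to 6.24. This was a rise of at least 25.5-fold (adjusted p = 0.0111, limma), with both WT arrays under the floor. The call in IL-15 was lost in 3 of the 5 fits that left out a pair. The adjusted p was 0.0521 without pair 1 of IL-2, 0.085 without pair 1 of IL-15 and 0.0817 without pair 2 of IL-15, against 0.0196 and 0.0156 without pair 2 and pair 3 of IL-2, and it was 0.116 when all 18194 named genes were tested.

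The effect of Runx3 loss on S1pr5 was compared between the cytokines in the same fit. The fitted change was -0.36 with an interval from -1.82 to 1.09 (adjusted p = 0.846, limma), so a difference between cytokines was not detectable with these arrays. Since the WT means lay under the floor in both cytokines, both effects are lower bounds and the size of their difference cannot be read. No gene of the 9391 passed this test after adjustment (0%), while 1106 genes (11.8%) had an unadjusted p under 0.05, none of them among the 4 members. By their sex-linked RNA the mice of the 2 cytokines also differed in sex (below). A change of effect between cytokines, here and for other genes, thus cannot be told apart from one between sexes.

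**Figure D2:**
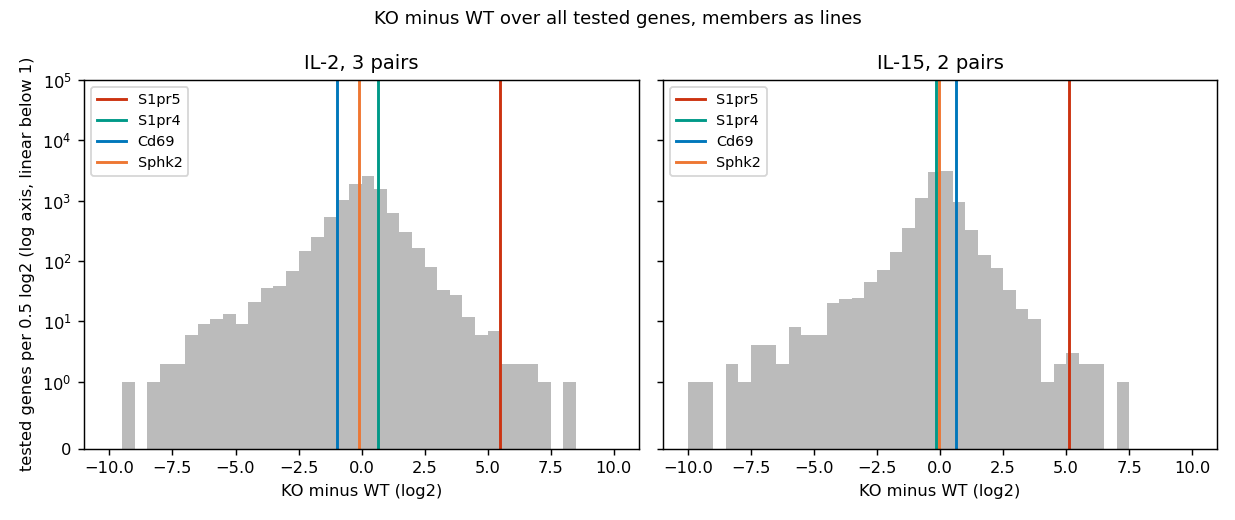
Number of tested genes (y axis, log scale that is linear below 1) by KO minus WT difference in steps of 0.5 log2 (x axis), with IL-2 on the left and IL-15 on the right. Coloured lines mark the tested members. S1pr5 lay at 5.48 and 5.12, in the thin right tail of both panels, and the lines of S1pr4, Cd69 and Sphk2 crossed the central mass.

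The promoter windows of 4 genes are given here to show the sequence next to the start of the receptor that rose, of the tested kinase, and of S1pr3 and Spns2, an S1P receptor and the S1P exporter, both of which fell in IL-2 (below). Each window holds the 250 bases before and the 50 bases after a RefSeq gene start in GRCm38.p6, written 5′ to 3′ along the gene, and capitals mark the core letters of the RUNX motif (TGTGGT, where the second T and the last T may each be C, read on either strand). S1pr5 lies on the minus strand at chr9:21248394-21248693, Sphk2 (the first of its 2 windows) on the minus strand at chr7:45717953-45718252, S1pr3 on the plus strand at chr13:51408368-51408667 and Spns2 on the minus strand at chr11:72474978-72475277.
S1pr5: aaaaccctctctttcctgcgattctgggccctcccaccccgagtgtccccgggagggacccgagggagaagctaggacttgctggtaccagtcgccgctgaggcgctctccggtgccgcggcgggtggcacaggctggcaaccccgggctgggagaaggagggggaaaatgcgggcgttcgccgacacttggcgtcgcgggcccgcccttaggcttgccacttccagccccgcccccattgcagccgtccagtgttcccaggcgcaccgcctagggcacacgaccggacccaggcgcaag
Sphk2: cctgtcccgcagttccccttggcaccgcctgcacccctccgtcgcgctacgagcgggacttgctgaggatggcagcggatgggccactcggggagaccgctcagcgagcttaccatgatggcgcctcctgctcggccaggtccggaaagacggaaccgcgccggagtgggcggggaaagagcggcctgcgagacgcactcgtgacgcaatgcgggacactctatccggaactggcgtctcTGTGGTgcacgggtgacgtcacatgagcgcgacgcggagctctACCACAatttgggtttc
S1pr3: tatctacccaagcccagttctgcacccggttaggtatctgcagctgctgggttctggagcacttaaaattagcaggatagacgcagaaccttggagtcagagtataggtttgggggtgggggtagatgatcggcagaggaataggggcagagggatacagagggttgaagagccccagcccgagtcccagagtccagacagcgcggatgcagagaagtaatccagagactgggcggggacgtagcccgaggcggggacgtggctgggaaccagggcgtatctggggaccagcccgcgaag
Spns2: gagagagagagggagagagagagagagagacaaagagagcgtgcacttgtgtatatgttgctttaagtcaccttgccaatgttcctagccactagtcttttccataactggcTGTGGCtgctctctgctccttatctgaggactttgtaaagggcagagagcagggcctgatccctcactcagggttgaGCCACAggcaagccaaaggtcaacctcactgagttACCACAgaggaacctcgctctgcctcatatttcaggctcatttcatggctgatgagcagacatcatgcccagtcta
The window of S1pr5 and that of S1pr3 held 0 of these hexamers, that of Sphk2 held 2, at bases 241 to 246 and 284 to 289, and that of Spns2 held 3. Of the 6 members, 4 had windows in the RefSeq table, 9 in all, and 3 of the 9 held a hexamer. Of all 32851 windows of this length, 45.19% held at least 1 and 12.8% at least 2. The letters CACCC, a core bound by Klf factors, stood 2 times, counting either strand, in each of the windows of S1pr5, Sphk2 and S1pr3 and 0 times in that of Spns2, and 25.66% of all windows held them at least 2 times. These are matches of letters only, within 300 bases.

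S1pr4, the receptor shared by many blood cells, did not pass the test in either cytokine. In IL-2 its probe set 1451024_at read 11.13, 10.58 and 11.29 in WT and 11.50, 12.05 and 11.35 in KO. Every KO array was above every WT array, as for 31.1% of all tested genes, but KO array 3 was above WT array 3 by little. The pair differences were 0.37, 1.47 and 0.06, with a mean of 0.63 ± 0.74 (SD, 3 pairs) and an interval from -0.15 to 1.41 (adjusted p = 0.213, limma). In IL-15 the values were 12.31 and 12.17 in WT and 12.03 and 12.17 in KO, or -0.15 ± 0.20 (SD, 2 pairs) with an interval from -1.10 to 0.81 (adjusted p = 0.943). The KO arrays were below the WT arrays, as for 32.9% of all tested genes, but the groups nearly met. The change of the effect between cytokines was -0.78 (interval -2.01 to 0.45, adjusted p = 0.581).

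S1pr1, the main egress receptor of T and B cells, was measured by 1 probe set, 1423571_at, which stayed between 1.80 and 2.55 in all 10 arrays. It was under log2 5 throughout and was not tested. Signal this low says only that no level above the floor was measured by this probe set.

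Cd69 did not pass the test, with pair differences that all had 1 sign in IL-2 and opposite signs in IL-15. In IL-2 its probe set 1428735_at read 10.35, 10.82 and 10.21 in WT and 9.60, 9.13 and 9.75 in KO. Every KO array lay below every WT array, as for 23.2% of all tested genes. The pair differences of -0.74, -1.68 and -0.46 had a mean of -0.96 ± 0.64 (SD, 3 pairs), with an interval from -2.02 to 0.10 (adjusted p = 0.171, limma). In IL-15 Cd69 read 9.62 and 8.58 in WT and 9.20 and 10.24 in KO. The groups overlapped, since pair 1 was lower in KO and pair 2 higher. The differences were -0.42 and 1.67, with a mean of 0.62 ± 1.48 (SD, 2 pairs) and an interval from -0.68 to 1.92 (adjusted p = 0.722). The effect in IL-15 minus that in IL-2 was 1.58 (interval -0.09 to 3.26), with an unadjusted p of 0.0606 and an adjusted p of 0.446 in limma.

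Neither kinase was called: Sphk2 did not pass the test, and Sphk1 was too dim to be tested. Sphk2, the kinase found largely in the nucleus and mitochondria, read 7.80, 7.36 and 8.13 in WT and 7.62, 8.06 and 7.29 in KO in IL-2 with its probe set 1417431_a_at. The genotypes covered the same range, and the pairs did not share a sign. The mean difference was -0.10 ± 0.78 (SD, 3 pairs), with an interval from -0.94 to 0.74 (adjusted p = 0.864, limma). In IL-15 Sphk2 read 7.28 and 6.92 in WT and 6.87 and 7.24 in KO, or -0.04 ± 0.52 (SD, 2 pairs) with an interval from -1.07 to 0.99 (adjusted p = 0.991). The ranges of the genotypes again overlapped. These intervals leave room for a difference of nearly 1 on the log2 scale in either direction. The second probe set of Sphk2, 1426230_at, read 1.95 to 2.09 in all arrays. Sphk1, the mainly cytosolic kinase, had 2 probe sets under log2 5 in every array and was not tested, 1451596_a_at at 2.78 to 2.97 and 1420566_at at 1.74 to 1.80.

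**Figure D3:**
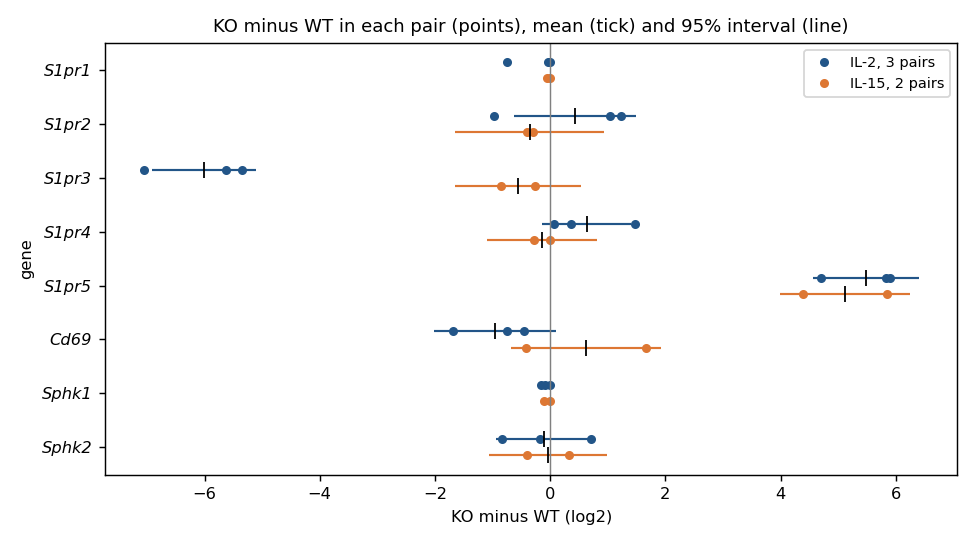
Difference between KO and WT in log2 units (x axis, above 0 for higher in KO) for each member and for the receptors S1pr2 and S1pr3 (y axis), in IL-2 (3 pairs) and IL-15 (2 pairs). Points are pairs, ticks are means and lines are 95% intervals, drawn for tested genes only. S1pr5 lay at 5.48 and 5.12 with intervals clear of 0, and S1pr3 at -6.01 in IL-2 with an interval clear of 0. In IL-15 the interval of S1pr3 included 0, with all its arrays under log2 5. The intervals of S1pr2, S1pr4, Cd69 and Sphk2 included 0 in both cytokines.

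Levels in the 2 cytokines are given without a test, because differences between the numbered pairs had been removed within each cytokine, which leaves too small a spread between arrays. Cytokine also cannot be told apart from a difference in sex between the mice. Xist, the RNA of the inactive X chromosome, lay at 4.64 to 5.37 in the IL-2 arrays and 14.28 to 14.66 in the IL-15 arrays, and the Y-linked Eif2s3y at 7.31 to 9.17 and 2.34 to 2.43. Of all tested genes, 35% in WT (22.1% higher in IL-15 and 12.9% lower) and 32.2% in KO (19% higher and 13.2% lower) differed at least 2-fold between cytokines.

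For S1pr5 the order of the group means was WT in IL-15 (4.56), WT in IL-2 (4.70), KO in IL-15 (9.67) and KO in IL-2 (10.18), and neighbours of the same genotype overlapped. S1pr4 ran from WT in IL-2 (11.00) over KO in IL-2 (11.63) and KO in IL-15 (12.10) to WT in IL-15 (12.24). It was 2.37-fold higher in IL-15 than in IL-2 in WT, with no overlap, and 0.46 higher on the log2 scale in KO, where the arrays overlapped. Cd69 was lowest in WT in IL-15 (9.10), followed by KO in IL-2 (9.49), KO in IL-15 (9.72) and WT in IL-2 (10.46). In WT, Cd69 was 2.56-fold lower in IL-15 than in IL-2 with no overlap, and in KO the arrays of both cytokines overlapped around a difference of 0.23. Sphk2 averaged 7.76 (WT) and 7.66 (KO) with IL-2 but 7.10 (WT) and 7.06 (KO) with IL-15, whose arrays were below those of IL-2 in both genotypes. With the spread between arrays reduced, a lack of overlap between cytokines carries little weight for any of these genes. The share of all tested genes without such overlap was not counted. Past 2-fold between cytokines were 2 of the 4 members in WT (S1pr4 and Cd69) and 0 in KO. Without WT array 2 in IL-15 the count in WT was 1.

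Of the 2 remaining S1P receptors, S1pr3 fell in IL-2 and S1pr2 was not called. S1pr3, a receptor better known from endothelium and heart, was read best by 1438658_a_at, at 7.75, 7.62 and 8.47 in WT and 2.13, 2.26 and 1.41 in KO in IL-2. WT arrays in IL-2 were the only group above the floor. The mean difference was -6.01 ± 0.92 (SD, 3 pairs), with an interval from -6.91 to -5.11, and S1pr3 fell at least 7.70-fold (adjusted p = 0.0011, limma), all KO values being under the floor. In IL-15 it read 2.36 and 2.66 in WT and 2.10 and 1.80 in KO. All 4 of these arrays lay under the floor, so neither a fold nor the size of a change of effect between cytokines can be read (adjusted p of that change = 0.0666). Its second probe set, 1437173_at, read 3.44 to 4.14 in WT and 1.57 to 2.27 in KO in IL-2, and 1460661_at read 1.77 to 1.92 in all arrays. S1pr2, a receptor that holds cells back from S1P in other leukocytes, read 7.68, 7.59 and 8.69 in WT and 8.72, 8.81 and 7.71 in KO in IL-2 with 1428176_at. Pair 3 ran against the other pairs. The difference was 0.43 ± 1.22 (SD, 3 pairs, adjusted p = 0.527) in IL-2 and -0.36 in IL-15 (adjusted p = 0.870), and without pair 3 of IL-2 it was 1.13 (adjusted p = 0.0467). Another S1pr2 probe set, 1447880_x_at, was of like brightness (7.01 to 8.60 over all arrays). It differed by 0.11 ± 0.70 (SD, 3 pairs) in IL-2 and by 0.47 ± 0.89 (SD, 2 pairs) in IL-15, there with the opposite sign.

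Beyond the receptors, a list of 72 genes around S1P was examined, of which 65 could be matched to a probe set and 50 entered the test. The list had been chosen with earlier results of these data known. The shares called, here and in its groups below, thus only describe it and are no test of it. In IL-2, 11 of the 50 rose (22%) and 4 fell (8%), beside 10.5% and 9.17% of all tested genes, and 35 were not called. The median difference of the list was 0.38, beside 0.11 over all genes. In IL-15, 0 of the 50 were called by limma (11 had an unadjusted p under 0.05, as did 13.5% of all tested genes), and the median was 0.01. No gene of the list passed the test of the change between cytokines (12 of the 50 had an unadjusted p under 0.05, as did 11.8% of all tested genes).

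Enzymes that supply ceramide and sphingosine, from which S1P is made, rose in 6 of 16 tested cases in IL-2 (37.5%, beside 10.5% of all tested genes) and fell in 0. Without pair 1 of IL-2 only Sgms1 of these 6 stayed called, and the count went from 6 to 1. They were Kdsr, a reductase of the first steps of ceramide synthesis (1.27 ± 0.19, SD, 3 pairs), the ceramide synthase Cers4 (1.58 ± 0.53), the sphingomyelinases Smpd2 (1.09 ± 0.41) and Smpd4 (1.24 ± 0.24), the sphingomyelin synthase Sgms1 (3.63 ± 1.32) and the ceramide kinase Cerk (2.54 ± 1.06). Adjusted p-values of these 6 lay between 0.00824 (Sgms1) and 0.0313 (Smpd2). Sgms1 read 2.27 to 3.46 in WT and 6.24 to 7.43 in KO, a rise of at least 3.17-fold. Members of this group act in opposite directions on the ceramide pool, since sphingomyelinases release ceramide while Sgms1 and Cerk use it up. Of the enzymes that remove S1P, the phosphatase Sgpp1 rose by 1.28 ± 0.65 (adjusted p = 0.0304), 1 of 4 tested, but had an adjusted p of 0.142 without pair 1 and 0.104 without pair 2 of IL-2, and of 0.0601 without either pair of IL-15.

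Spns2, the transporter that exports S1P from cells, was the only tested gene of the transport group. In IL-2 it read 7.32, 7.45 and 8.30 in WT and 6.19, 6.07 and 5.21 in KO, and in IL-15 7.85 and 7.33 in WT and 7.64 and 8.16 in KO. KO arrays were below WT arrays in IL-2, as for 23.2% of all tested genes, whereas the IL-15 groups overlapped. In IL-2 Spns2 fell by 1.87 ± 1.06 on the log2 scale (SD, 3 pairs), or 3.64-fold (adjusted p = 0.0285, limma, but above 0.05 with any 1 of the 3 pairs left out, at 0.074, 0.069 and 0.065 for pairs 1, 2 and 3), and in IL-15 the difference was 0.30 ± 0.74 (SD, 2 pairs, adjusted p = 0.891). The change of effect between cytokines was 2.17 (interval 0.54 to 3.80, adjusted p = 0.329).

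Among genes that couple or desensitize the receptors, 1 of 12 was called in IL-2 (8.33%, beside 9.17% of all tested genes that fell). This was the inhibitory G protein subunit Gnai3, which fell by 1.29 ± 0.19 (adjusted p = 0.0157, but 0.0666 without pair 1 and 0.0639 without pair 2 of IL-2). Of the 7 tested transcription factors known to act on S1pr1, S1pr5 or Cd69 in lymphocytes, 2 rose (28.6%, beside 10.5% of all tested genes). Klf2, which drives S1pr1 in T cells, read 3.57, 3.43 and 3.85 in WT and 7.69, 7.83 and 7.41 in KO in IL-2. WT arrays lay under the floor and all KO arrays above it. The difference was 4.02 ± 0.43 (SD, 3 pairs), at least 6.25-fold (adjusted p = 0.0077, but 0.0618 without pair 1 of IL-2). In IL-15 Klf2 read 6.99 and 5.25 in WT and 8.59 and 10.33 in KO, or 3.35 ± 2.46 (SD, 2 pairs, adjusted p = 0.102). The IL-15 groups did not overlap, which held with KO higher for 31.7% of all tested genes, and the pairs differed widely. Tbx21, the T-box factor needed for S1pr5 in NKC, rose by 1.42 ± 0.67 in IL-2 (adjusted p = 0.026, but 0.123 without pair 1 and 0.0867 without pair 2 of IL-2) and differed by 0.05 ± 0.38 in IL-15 (adjusted p = 0.986).

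Of the other homing receptors, 2 of 7 rose in IL-2 (28.6%, beside 10.5% of all tested genes) and 1 fell (14.3%, beside 9.17%). The chemokine receptor Cxcr3 rose from 9.45 to 13.32, by 3.88 ± 0.43 (14.7-fold, adjusted p = 0.00132), and Cxcr4, which holds cells in bone marrow, by 2.04 ± 1.59 (at least 2.60-fold, adjusted p = 0.0439). Cxcr4 was not called without pair 2 or pair 3 of IL-2 (adjusted p = 0.176 and 0.144) or without either pair of IL-15 (0.0705). The collagen-binding integrin Itga1 fell by 2.62 ± 1.13 (at least 5.13-fold, adjusted p = 0.0451), and its adjusted p was 0.114, 0.127 and 0.151 without pair 1, 2 and 3 of IL-2. Of the 15 calls in this list, S1pr3, Sgms1 and Cxcr3 held under every omission of a pair. Sgms1 was not called with no filter on low values (adjusted p = 0.065, limma). With the mean of a gene's probe sets, S1pr3 and Sgms1 did not enter the test, and 11 of the 15 calls were kept, among them Cxcr3. Without pair 1, 2 or 3 of IL-2 the calls kept were 4, 6 and 11 of 15, without either pair of IL-15 they were 12, and with no filter on low values 6.

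The genes most like each member were found by Pearson's r over the 10 arrays, which carry only 5 independent pair differences and 2 cytokine means. Closest to S1pr5 were Ubap2l (r = 0.993), Abca3 (0.992) and Sbk1 (0.992). Both Abca3 and Sbk1 rose in both cytokines. Since S1pr5 varied mostly by genotype, genes chosen for likeness to it were bound to differ that way, which is no separate finding. For Abca3, which was under the floor in WT, the rise was at least 3.17-fold in IL-2 and 2.25-fold in IL-15, and Sbk1 rose by 4.23 and 3.50 on the log2 scale, while Ubap2l differed by 0.81 and 0.68 and was not called. S1pr4 was most like Gucd1 (0.994), Rfxank (0.969) and Mkrn2 (0.963). Cd69 had no close match, with 0.913 for Nbas and 0.895 for both Rpp21 and Agbl5. For Sphk2 the genes were Mul1 (0.978), Tmed4 (0.975) and Acer3 (0.975), a ceramidase and so an enzyme that releases sphingosine.

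The makeup of the cultures was read from marker lists. Of 9 NKC markers with a named probe set, 8 reached log2 5, and the exception was Itga2, which encodes the DX5 antigen, at 2.18 to 2.45 in all arrays. The mean level of the NKC list was 11.00 to 11.23 in WT and 11.20 to 11.42 in KO in IL-2. In IL-15 it was 11.69 to 11.79 in WT and 11.22 to 11.32 in KO, lower without overlap, as in 32.9% of all tested genes. This mean joins probe sets of unlike brightness, and its members moved apart. In IL-2 Ncr1 read 9.15 to 10.11 in WT and 11.16 to 12.12 in KO, with Tbx21 and Nkg7 also higher. Prf1 read 14.33 to 15.23 in WT and 12.75 to 13.64 in KO, with Eomes also lower. In IL-15 Prf1, Klrk1, Klrd1, Il2rb and Eomes were lower in KO without overlap, and Nkg7 was higher. All 5 B cell markers stayed under log2 5, as did 4 of 8 T cell markers, among them Cd4, Cd8a and Cd8b1, 5 of 6 granulocyte and mast cell markers, 3 of 4 dendritic cell markers and 3 of 4 endothelial markers (Cdh5, Kdr and Tek). The other T cell markers lay above log2 5 in every array. Cd3d read 5.36 to 7.80, Cd3e 5.22 to 7.36, Cd3g 7.17 to 11.22 and Cd28 10.60 to 12.66. Kit, of the granulocyte and mast cell list, read 10.78 to 14.03, and Zbtb46, of the dendritic cell list, 6.00 to 6.51. The remaining endothelial marker, Pecam1, also an adhesion molecule of leukocytes, read 9.30 to 10.18 in WT and 5.88 to 6.75 in KO in IL-2, and 7.57 to 8.15 and 5.43 to 6.01 in IL-15, lower in KO in every pair. Of 5 macrophage markers, 4 had a group mean of at least log2 5 in WT and 3 in KO in IL-2, and 1 in WT and 3 in KO in IL-15. Their list means overlapped between genotypes in both cytokines (4.18 to 7.51), but members moved apart, since in IL-2 Cd14 read 6.27 to 9.19 in WT and 2.29 to 5.20 in KO while Lyz2 read 3.61 to 6.74 in WT and 6.30 to 9.43 in KO. The 5 markers of type 1 innate lymphoid cells had list means of 5.10 to 6.00 in WT and 6.28 to 7.18 in KO in IL-2. In IL-15 these means were 8.45 to 8.51 in WT and 8.41 to 8.47 in KO. Here too members moved apart. In IL-2 Itga1 was lower in KO in every pair, and Cxcr6, Tnfsf10, Il7r and Cd200r1 were higher. In IL-15 Itga1 read 9.03 to 10.85 in WT and 5.41 to 7.23 in KO. Il7r read 7.27 to 7.45 in WT and 9.81 to 9.98 in KO. Cxcr6 was lower in KO in both pairs, and Tnfsf10 and Cd200r1 differed in sign between pairs. The part of these marker shifts in the results on S1pr5 and S1pr3 was not tested. Itga1 is itself on the list of type 1 innate lymphoid cells and Tbx21 on that of NKC. Runx3 itself, by its brighter probe set 1440275_at, averaged 11.65 in WT and 11.07 in KO in IL-2, and 12.48 and 11.38 in IL-15. The IL-2 pairs did not share a sign (0.10, -0.42 and -1.40). Its other probe set, 1421467_at, read 2.02 to 2.82 in all arrays. The place of these probe sets relative to the disrupted part of the gene is not given in the sources used here, so they do not check the labels.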

How the data were processed

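RNA of 10 cultures, each from 1 mouse, had been hybridised to Affymetrix arrays, 1 array each. The authors had normalized the arrays by GC-RMA with Partek Genomics Suite (versions not given in the sources used here) and deposited log2 signals, which were used unscaled. Groups came from the labels. The median log2 signal of an array was 3.20 to 3.37, log2 5 was reached by 34.6% to 36.7% of probe sets, and the number of arrays limits the precision. The table holds 117 values above log2 16.

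Probe sets were named by the platform's gene table (34958 with 1 symbol, 932 with several, 9211 not listed), and 34754 gene identifiers matched the GRCm38.p6 annotation. Genes reaching log2 5 in at least 2 arrays were fitted with limma 3.58.1 in R 4.3.3 (lmFit, eBayes) over all arrays, which left 3 residual degrees of freedom, and p-values were adjusted over all tested genes. The replicate number served as a block because the sums of same-numbered WT and KO arrays were constant, while crossed sums differed by medians of 0.193 (IL-2) and 0.170 (IL-15). What the arrays of a pair shared is not stated. The fits were tested on simulated data.

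The members and lists were chosen with earlier results of these data known. Named are all 6 members, the 3 genes most correlated with each tested member, every called gene of the list, S1pr2 and S1pr3. Runx3 and the sex-linked Xist and Eif2s3y are named too. Alternatives were the fit without the block, other filters on low values, median centring, quantile normalization, each probe set alone or their mean, eBayes with trend, the study's thresholds, and leaving out each pair. Promoter windows are from RefSeq, and S1pr1 and Cd69 have none here.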

Additional observations from a re-analysis of the deposited data

How the results depend on the processing

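S1pr5 in IL-2 kept its call under all 14 alternatives (5.27 to 5.87, limma adjusted p 7.09e-06 to 0.0217), and the count of members called there was 1 in each. In IL-15 the count of members called fell from 1 to 0 with no filter on low values, and ranged from 0 to 1 when a pair was left out. S1pr5 lay between 4.38 and 5.85 in IL-15. Past 2-fold between cytokines in WT were 2 members, and between 1 and 2 with an array left out. Some uncalled differences turned their sign when a pair was left out. Sphk2 then ranged from -0.51 to 0.27 in IL-2 and from -0.41 to 0.33 in IL-15, Cd69 from -0.42 to 1.67 and Spns2 from -0.22 to 0.82 in IL-15. The change between cytokines ranged from -0.31 to 0.47 for Sphk2, from -1.10 to 0.37 for S1pr5 and from -2.42 to 1.06 for Klf2. With the mean of its probe sets S1pr2 was 0.055 in IL-15. The cause was not tested. Without the replicate block the members called stayed at 1, 1 and 0 for IL-2, IL-15 and the change between cytokines, while all genes called went from 1851, 122 and 0 to 3803, 1321 and 1157, and S1pr3 and Spns2 then passed the test of change between cytokines (adjusted p = 0.000887 and 0.0379). That fit takes the mirrored arrays as independent, with 6 residual degrees of freedom in place of 3, so its p-values are too small. The lowest p given above for S1pr5 in IL-2, 7.09e-06, came from that fit too. With no filter the genes called were 842, 0 and 0, with a pair of IL-2 left out 537 to 1525 in IL-2, 12 to 95 in IL-15 and 0, and with a pair of IL-15 left out 1292, 0 to 11 and 0 to 1. The study's thresholds gave 3404, 1274 and 1099 genes, single probe sets 2830, 123 and 0, and the mean of probe sets 1636, 44 and 0.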
